A study of Mus musculus with 19 samples.

Results

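The Krüppel-like factors KLF4, KLF6, KLF7, KLF10, KLF11, KLF12 and KLF13 were followed by name through the gene counts of sorted regulatory T cells (Tregs). All 7 symbols were found among the 24982 genes listed, and 6 of the 7 passed the filter on low counts that left 11464 genes for testing; KLF4 did not. The cells came from Foxp3DTR mice, a strain in which the Foxp3 locus also drives GFP and a diphtheria toxin receptor in every Treg, aged 8 to 16 weeks. The injured mice had received a burn over 20% of the body surface in a 90 °C water bath for 9 s, and the uninjured mice had been held in room temperature water for the same time. On day 7 the lymph nodes that drain the injury site (axillary, brachial and inguinal) were taken, and CD4+ FoxP3-GFP+ cells were sorted by surface CD44 into CD44high and CD44low Tregs, with 50000 cells for each sample. The 19 libraries comprised 4 of CD44high and 5 of CD44low Tregs from uninjured mice, and 4 of CD44high and 6 of CD44low Tregs from injured mice. Of the 6 injured CD44low libraries, 3 (labelled 1, 2 and 5) carried a plain number as all other libraries did, and 3 (labelled 1_2, 4_2 and 5_2) carried a second number whose meaning was not given. The labels did not say whether a sample was 1 mouse or a pool, so p-values measure the spread between these samples, which may be partly technical.

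Krüppel-like factors are transcription factors that bind GC-rich and CACCC letters in promoters through a set of zinc fingers at the carboxyl end, and their amino-terminal parts decide whether a target is switched on or off. KLF4, KLF6 and KLF7 are mostly activators, and KLF4 and KLF6 are also known as early response genes whose mRNA rises quickly after a stimulus. KLF10 and KLF11, named TGF-β-inducible early genes, and KLF13 carry a domain that recruits the Sin3 corepressor, and KLF12 recruits the CtBP corepressor, as do its relatives KLF3 and KLF8. In T cells the family is best known for KLF2, which keeps up the egress gene S1pr1, for KLF4, which restrains proliferation, for KLF10, which has been linked with Foxp3 and TGF-β in Tregs, and for KLF13, first described as a late activator of Ccl5.

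The 19 libraries held between 5582234 and 9433610 counts, and levels are given as CPM, the count of a gene relative to the library's total after scaling by trimmed means. The sort was visible in the counts: Cd44 stood at 594 ± 37.5 CPM (SD, n = 4) in uninjured CD44high and 133 ± 16.1 CPM (SD, n = 5) in uninjured CD44low Tregs. Markers of myeloid cells, 6 genes of which none was without counts in any group, summed to 239 to 333 CPM in uninjured and 268 to 420 CPM in injured CD44high libraries. In CD44low libraries the sum was lower, 115 to 136 CPM in uninjured and 139 to 267 CPM in injured mice, without overlap. All 6 genes were called higher in CD44high Tregs of uninjured and 3 of injured mice, where 24.7% and 20.1% of all genes were. In CD44low Tregs 2 of the 6 genes (LYZ2 and ITGAM) were called higher after injury, where 4.24% of all genes were. The part of the myeloid markers in the differences between the subsets and in the effects of injury was not tested. The NK cell marker KLRB1C was called higher in CD44high Tregs in both kinds of mice and higher after injury in CD44low Tregs. It stood at 3.71 ± 2.47 CPM in uninjured and 12.8 ± 2.68 CPM in injured CD44high Tregs (SD, n = 4, edgeR adjusted p 0.0633) and at 0.294 ± 0.422 and 2.32 ± 1.31 CPM in CD44low Tregs (SD, n = 5 and 6, adjusted p 0.00872), and its part was not tested. The other NK cell marker of the list, NCR1, was not called in these comparisons. NCR1 stood at 1.43 ± 0.726 and 1.37 ± 0.698 CPM in uninjured and injured CD44high Tregs (SD, n = 4). In CD44low Tregs NCR1 stood at 0.315 ± 0.704 and 0.482 ± 0.590 CPM (SD, n = 5 and 6). Markers of neutrophils, 4 genes led by S100A8 and S100A9, summed to 0 to 0.500 CPM in uninjured and 2.12 to 20.1 CPM in injured CD44high libraries. In CD44low libraries they summed to 0 to 1.69 CPM in uninjured and 0 to 30.4 CPM in injured mice. Of the 2 tested genes of this list, 1 was called higher after injury in CD44high and 1 in CD44low Tregs, where 1.06% and 4.24% of all genes were. The part of neutrophils in the effects of injury was not tested. The 6 stromal and endothelial markers summed to 59.3 to 114 CPM in CD44high and 135 to 230 CPM in CD44low libraries. PECAM1, which T cells also express, made up nearly the whole sum. PDPN had no count in any library, and CDH5, KDR and COL3A1 stayed under 1 CPM. COL1A1 stood at 2.36 ± 0.735 CPM in uninjured CD44high and 0.0567 ± 0.127 CPM in uninjured CD44low Tregs (SD, n = 4 and 5). In injured mice COL1A1 ranged from 0.663 to 2.26 CPM in CD44high and 0 to 0.570 CPM in CD44low libraries. Of the 2 tested genes of this list, 1 was called higher and 1 lower in CD44high Tregs in each kind of mouse. Of all genes, 24.7% were higher and 21.3% lower in uninjured mice, and 20.1% and 17.2% in injured mice. After injury 1 of the 2 was called higher in CD44high Tregs, where 1.06% of all genes were. PECAM1 stood at 60.7 ± 6.79 CPM in uninjured and 97.8 ± 15.2 CPM in injured CD44high Tregs (SD, n = 4). The part of stromal cells in the differences between the subsets and in the effects of injury was not tested. A list of 10 immediate-early genes, which respond within minutes to stimulation and to cell handling, summed to 3529 to 4308 CPM in uninjured and 1832 to 2324 CPM in injured CD44high Tregs. In uninjured CD44low Tregs that sum was 3296 to 4452 CPM, and in injured CD44low Tregs it was 1752 to 1824 CPM in the 3 libraries with a plain number and 2728 to 3409 CPM in the 3 with a second number. These are bulk samples, so fewer cells of a type with a given mRNA and less of that mRNA per cell cannot be told apart.

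Per kb of exon, the scale on which levels of different genes can be set side by side, KLF6 had the highest mean of the 7 members in each of the 4 groups, with 86.9 ± 9.48 CPM per kb (SD, n = 4) in uninjured CD44high and 87.9 ± 9.34 CPM per kb (SD, n = 5) in uninjured CD44low Tregs. KLF13 and KLF10 came next. In uninjured CD44high Tregs these 2 were level, at 36.8 ± 4.21 and 39.7 ± 5.26 CPM per kb (SD, n = 4), whereas in uninjured CD44low Tregs KLF13 stood at 50.8 ± 3.58 and KLF10 at 12.2 ± 1.16 CPM per kb (SD, n = 5). KLF11 and KLF7 followed, and they changed places between the subsets: KLF11 lay at 7.90 ± 1.45 and KLF7 at 1.10 ± 0.141 CPM per kb (SD, n = 4) in uninjured CD44high Tregs, while in uninjured CD44low Tregs they lay at 3.38 ± 0.690 and 3.75 ± 0.809 CPM per kb (SD, n = 5). KLF12 and KLF4 were the least abundant. KLF12 stood at 1.13 ± 0.0902 CPM per kb in uninjured CD44high Tregs, on a par with KLF7 there, and at 0.0480 ± 0.0952 CPM per kb in uninjured CD44low Tregs, below KLF4 at 0.352 ± 0.0962 CPM per kb.

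**Figure D1:**
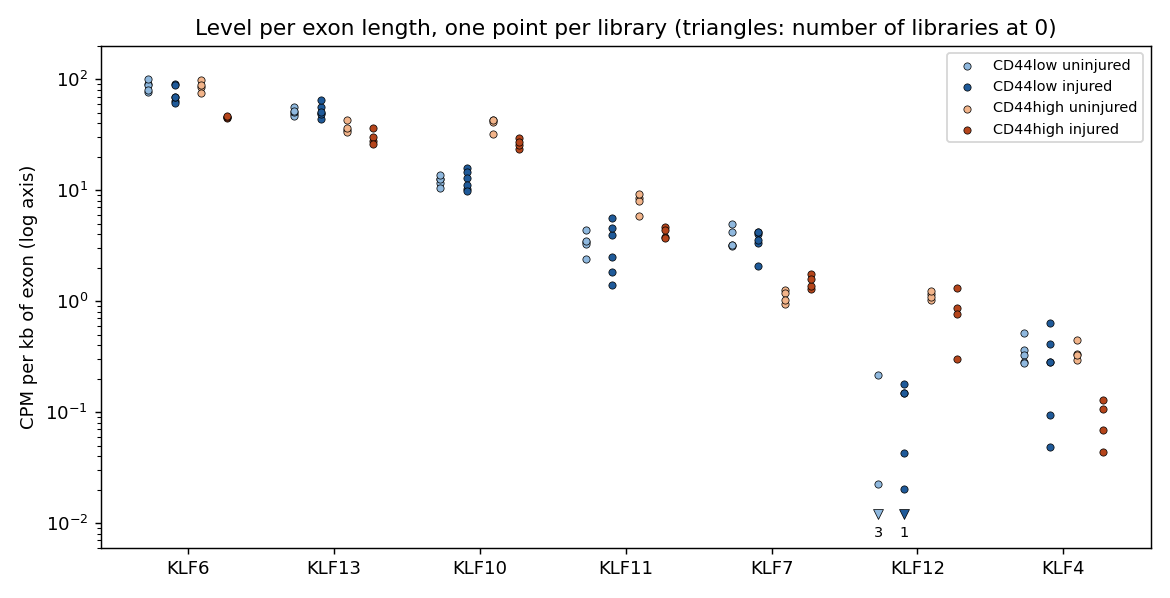
Level of each member per kb of exon (CPM per kb, log axis), with 1 point per library and the 4 groups side by side; triangles give the number of libraries at 0. KLF6, KLF13 and KLF10 lie above the other members in every group, and KLF12 falls to or near 0 in the CD44low libraries.

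The start regions of 6 of the 7 members were matched in RefSeq (GRCm38.p6), and KLF10 was not. Of these, 3 are shown because they belong to the members with the clearest patterns across the groups: KLF6, lower after injury in CD44high Tregs, KLF7, lower in CD44high than in CD44low Tregs, and KLF12, higher in CD44high Tregs. They lie upstream of the RefSeq start and outside exons annotated in GENCODE vM21, at chr13:5861239-5861481 (plus strand) for KLF6, at chr1:64121492-64121639 (minus strand) for KLF7 and at chr14:100149797-100150046 (minus strand) for KLF12. The KLF7 and KLF12 stretches lie inside the annotated genes, which span chr1:64029447-64122282 and chr14:99870632-100284679. Their letters and base composition thus describe the RefSeq start and not the outermost annotated start. Of the 250 bases before the RefSeq start, 7 were annotated exon for KLF6, 102 for KLF7 and 0 for KLF12. Capitals mark the letters that the family itself binds, CACCC and GGGCGG, on either strand (as GGGTG and CCGCCC on the other).
KLF6: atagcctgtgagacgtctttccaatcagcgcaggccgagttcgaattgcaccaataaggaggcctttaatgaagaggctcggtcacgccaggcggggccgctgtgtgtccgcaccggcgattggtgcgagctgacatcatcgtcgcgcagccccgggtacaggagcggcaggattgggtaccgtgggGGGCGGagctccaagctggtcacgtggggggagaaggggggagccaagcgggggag
KLF7: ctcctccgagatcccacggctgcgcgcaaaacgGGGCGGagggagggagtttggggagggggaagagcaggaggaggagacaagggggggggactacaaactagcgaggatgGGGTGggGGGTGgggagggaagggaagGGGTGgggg
KLF12: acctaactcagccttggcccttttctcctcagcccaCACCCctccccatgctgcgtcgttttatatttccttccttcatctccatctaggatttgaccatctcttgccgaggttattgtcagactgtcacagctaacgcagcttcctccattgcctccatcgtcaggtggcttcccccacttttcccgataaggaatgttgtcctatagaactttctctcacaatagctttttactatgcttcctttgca

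In the 250 bases before the RefSeq start, KLF6 held 1 GGGCGG and no CACCC, KLF7 held 3 CACCC and 1 GGGCGG, and KLF12 held 1 CACCC and no GGGCGG. The GGGCGG letters were also present in KLF4 and KLF11 (4 matches each, with a pair that shares letters in both) and KLF13 (3 matches), and CACCC in KLF13 (1 match, which shares letters with a GGGCGG). Of the 32851 mouse start regions of this length in the table, 52% held CACCC and 32.7% held GGGCGG. The letters TGANTCA and TGACGTCA and the CArG box, which AP-1, CREB and SRF bind at early response genes, were in none of the 6 windows, against 6.75%, 1.55% and 1.47% of all start regions. The 3 windows also differed in base composition, with 64.8% G and C for KLF6, 59.2% for KLF7 and 48% for KLF12 over the 250 bases.

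The first question was how the members differed between the subsets. In uninjured mice, 3 of the 6 tested members were higher and 2 were lower in CD44high than in CD44low Tregs by edgeR's quasi-likelihood test (adjusted p under 0.05), where 24.7% of all 11464 genes tested were called higher and 21.3% lower. In injured mice, 2 were higher and 3 were lower, where 20.1% of all genes were called higher and 17.2% lower. In each comparison 5 of the 6 tested members had libraries that did not overlap between the subsets, which was so for 40.7% of all genes in uninjured and 24.8% in injured mice. The median size of the difference, regardless of direction, was 1.46 on the log2 scale over the 6 members and 0.44 over all genes in uninjured mice, and 0.94 against 0.36 in injured mice. KLF7, KLF10, KLF12 and KLF13 were called with the same direction in both, KLF11 in uninjured and KLF6 in injured mice.

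**Figure D2:**
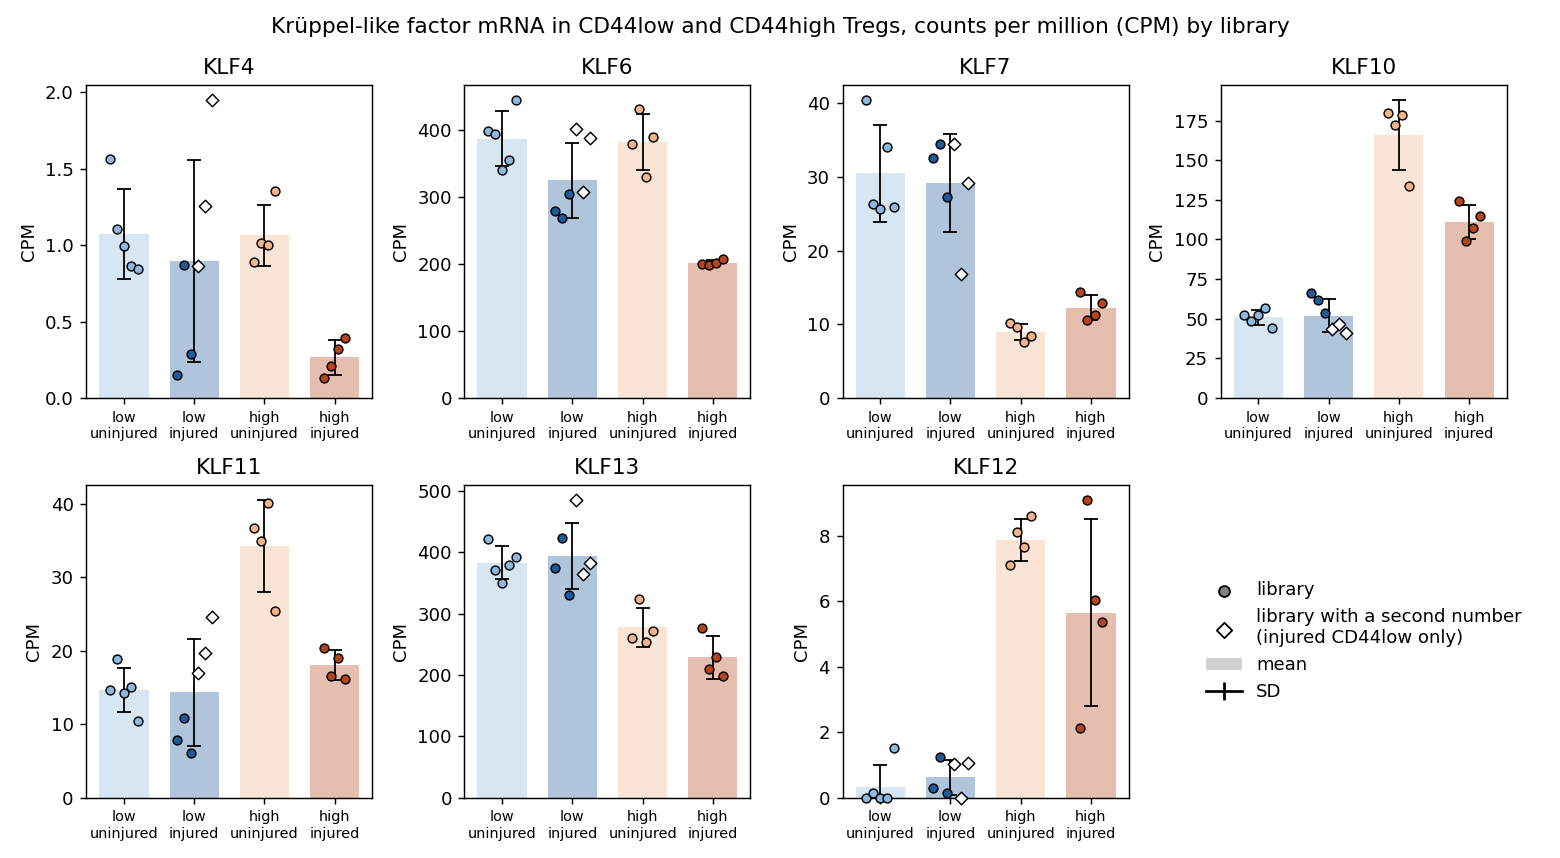
CPM of the 7 members in each library by group; bars are means, error bars SD, circles libraries with a plain number and diamonds the injured CD44low libraries with a second number. KLF10 and KLF12 are higher and KLF7 and KLF13 lower in all CD44high libraries than in all CD44low libraries of the same mice, and KLF6 is lowest in the 4 injured CD44high libraries.

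**Figure D3:**
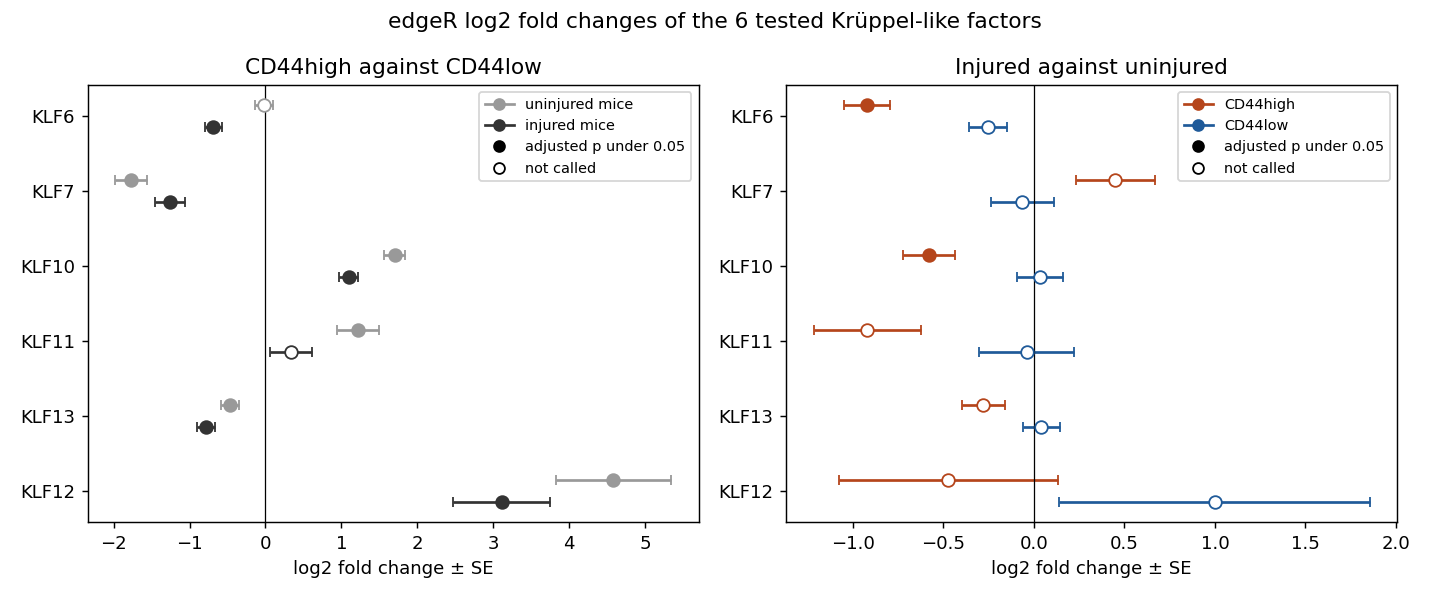
Log2 fold changes (x axis, ± SE, edgeR) of the 6 tested members between the subsets (left) and after injury (right); filled points passed adjusted p under 0.05. Between the subsets 5 members passed in each comparison, and after injury KLF6 and KLF10 passed, both in CD44high Tregs.

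The second question was the effect of injury. In CD44high Tregs, 2 of the 6 tested members were called lower and none higher, where 1.33% of all genes were called lower and 1.06% higher. Libraries of injured and uninjured mice did not overlap for 4 of the 6 tested members, against 13.2% of all genes, and for the untested KLF4. In CD44low Tregs none of the 6 was called by edgeR or by DESeq2, where 4.24% of all genes were called higher and 3.36% lower; at an unadjusted p under 0.05 there was 1, KLF6 (p 0.0254), and none of the 6 was free of overlap, as 4.68% of all genes were. The third question was whether the effect of injury differed between the subsets, and by the interaction term none of the 6 was called by edgeR, where 0.645% of all genes were; 3 (KLF6, KLF10 and KLF11) had an unadjusted p under 0.05, and DESeq2 called 1. KLF6 was the nearest, with a difference of -0.67 ± 0.163 (log2, SE) and an adjusted p of 0.0577, and DESeq2 called it at an adjusted p of 0.00658.

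KLF6, the activator with the most mRNA, did not separate the subsets in uninjured mice. The uninjured CD44high libraries held 329, 378, 390 and 430 CPM and the uninjured CD44low libraries 340, 354, 394, 398 and 444 CPM. The injured CD44high libraries held 197, 199, 201 and 207 CPM, with an SD of 2.02% of their mean. All 4 lay below each of the other 15 libraries. KLF6 was thus 1.90-fold lower in injured than in uninjured CD44high Tregs (log2 fold change -0.92 ± 0.125 SE, edgeR adjusted p 0.00014), the gene of rank 12 by p among all tested, and 1.61-fold lower in CD44high than in CD44low Tregs of injured mice (log2 fold change -0.69 ± 0.115 SE, adjusted p 4.7e-05). Injured CD44low libraries ranged from 268 to 401 CPM with a median of 306 CPM and overlapped those of uninjured mice (log2 fold change -0.25 ± 0.106 SE, adjusted p 0.133). Of the 9 tested genes of the immediate-early list, 4 were also called lower in injured CD44high Tregs and none higher, where 1.33% of all genes were called lower: FOS, JUN, DUSP1 and ZFP36, with log2 fold changes of -3.38, -1.33, -1.54 and -1.15. The other 5 did not pass, with -1.45 for FOSB, -0.84 for JUNB, -0.12 for IER2, -0.09 for NR4A1 and 0.45 for EGR1, and the part of this list in the result for KLF6 was not tested. Across the 19 libraries CCDC9 (0.17) and PDK2 (0.21) were most like KLF6, by the root mean square difference of log2 CPM. Each gene's own mean was subtracted first, and KLF6 itself deviated by 0.39.

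KLF4, the relative of KLF6 that restrains T cell proliferation, was near the limit of detection, with at most 13 counts in a library. Uninjured CD44high libraries held 0.891, 1.00, 1.02 and 1.35 CPM and injured CD44high libraries 0.133, 0.212, 0.323 and 0.393 CPM, which are 1 to 3 counts each. The 4 injured libraries were below the 4 uninjured ones, and also below all 5 uninjured CD44low libraries, which held 0.843 to 1.56 CPM. In a fit without the filter on low counts, over 16891 genes, the log2 fold change was -1.92 ± 0.760 (SE) with an adjusted p of 0.271, so a change after injury was not detectable at this depth. Injured CD44low libraries ranged from 0.149 to 1.95 CPM with a median of 0.866 CPM.

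KLF7, an activator known from neurons and from immature lymphocytes, had its higher levels in CD44low Tregs. Uninjured CD44low libraries held 25.7, 26.0, 26.3, 34.0 and 40.5 CPM and uninjured CD44high libraries 7.67, 8.35, 9.66 and 10.2 CPM. No libraries overlapped, and the level in CD44high Tregs was 3.41-fold lower (log2 fold change -1.77 ± 0.209 SE, edgeR adjusted p 2.5e-07). In injured mice CD44low libraries ranged from 16.9 to 34.5 CPM with a median of 30.9 CPM, and CD44high libraries held 10.6, 11.2, 12.8 and 14.3 CPM, 2.39-fold lower (log2 fold change -1.26 ± 0.194 SE, adjusted p 1.6e-05). The 4 injured CD44high libraries lay above the 4 uninjured ones, by 0.45 ± 0.218 (log2, SE), which did not pass the test (adjusted p 0.332), and the effect of injury was not shown to differ between the subsets (interaction 0.51 ± 0.277, adjusted p 0.518). The genes most like KLF7 across the 19 libraries, by the root mean square difference of log2 CPM after each gene's own mean was subtracted, were LEF1 (0.26) and DPH5 (0.27), where the deviation of KLF7 itself was 0.78.

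KLF10, a TGF-β-inducible repressor, was higher in CD44high Tregs. Uninjured CD44high libraries held 133, 172, 178 and 180 CPM against 44.0, 48.5, 52.5, 52.6 and 56.9 CPM in uninjured CD44low libraries. This was 3.26-fold (log2 fold change 1.70 ± 0.138 SE, edgeR adjusted p 5.1e-10). Injured CD44high libraries held 98.9, 107, 115 and 124 CPM and injured CD44low libraries 40.8 to 66.3 CPM with a median of 50.1 CPM, and the difference was 2.13-fold (log2 fold change 1.09 ± 0.131 SE, adjusted p 4.1e-07). In both kinds of mice every CD44high library was above every CD44low library. Within CD44high Tregs all 4 injured libraries lay below all 4 uninjured ones, a 1.49-fold decrease (log2 fold change -0.58 ± 0.143 SE, adjusted p 0.0288). This call was lost when any of 6 of the 8 libraries was left out (uninjured 2, 3 or 4, or injured 3, 4 or 5), with adjusted p between 0.0743 and 0.109 and log2 fold changes between -0.59 and -0.52. In CD44low Tregs the log2 fold change was 0.03 ± 0.127 (SE, adjusted p 0.899). The genes most like KLF10 over the 19 libraries were KIF20A (root mean square difference 0.19) and MCM6 (0.21), where KLF10 itself deviated by 0.74.

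KLF11, the closest relative of KLF10, shared its direction between the subsets in uninjured mice. Uninjured CD44high libraries held 25.4, 34.9, 36.7 and 40.2 CPM and uninjured CD44low libraries 10.5, 14.3, 14.7, 15.1 and 18.9 CPM, without overlap, and the level was 2.33-fold higher (log2 fold change 1.22 ± 0.281 SE, edgeR adjusted p 0.00112). Injured CD44high libraries held 16.2, 16.6, 19.1 and 20.4 CPM. They lay below all uninjured CD44high libraries and between the injured CD44low libraries, which ranged from 6.13 to 24.6 CPM with a median of 13.9 CPM. Neither the difference between the subsets in injured mice (0.34 ± 0.273, log2, SE, adjusted p 0.348) nor the decrease after injury in CD44high Tregs (-0.92 ± 0.295, adjusted p 0.108) passed the test in the fit with 4 group means. The size of the decrease in CD44high Tregs was much the same in the other fits, and its call differed between them: it passed with the CD44high libraries fitted alone (adjusted p 0.00723) and with all 19 libraries when the injured CD44low libraries with and without a second number had a mean each (adjusted p 0.00833). GNG2 and CENPB were most like KLF11 (root mean square differences of 0.36 for both, where KLF11 itself deviated by 0.68).

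KLF13, the other member that recruits Sin3, went the opposite way to KLF10 and KLF11. Uninjured CD44high libraries held 254, 260, 272 and 324 CPM and uninjured CD44low libraries 350, 370, 380, 393 and 422 CPM. The groups did not overlap, and the level in CD44high Tregs was 1.38-fold lower (log2 fold change -0.46 ± 0.115 SE, edgeR adjusted p 0.0021). In injured mice CD44high libraries held 198, 210, 229 and 277 CPM and CD44low libraries 331 to 486 CPM with a median of 379 CPM, and the level was 1.72-fold lower (log2 fold change -0.78 ± 0.113 SE, adjusted p 6.1e-06). Injury changed KLF13 by -0.28 ± 0.121 in CD44high and 0.04 ± 0.103 in CD44low Tregs (log2, SE, adjusted p 0.267 and 0.843), with overlapping libraries in both. Its nearest genes by the same measure were 4930523C07RIK (0.13) and UBAC2 (0.14), where KLF13 itself deviated by 0.36.

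KLF12, the repressor that binds CtBP, was found in CD44high Tregs and was at or near 0 in CD44low Tregs. Uninjured CD44high libraries held 7.12, 7.67, 8.13 and 8.60 CPM, or 40 to 70 counts. Of the 5 uninjured CD44low libraries, 3 held no count, replicate 2 held 1 count (0.157 CPM) and replicate 5 held 9 counts (1.52 CPM). All CD44high libraries were above all CD44low ones, and the fitted log2 fold change was 4.58 ± 0.759 (SE, 23.9-fold, edgeR adjusted p 3.1e-05). The size rests on replicate 5, which held 9 of the 10 counts: without it the fitted value was 7.15, and the ratio of the 204 counts in CD44high libraries to the 1 count left, per count sequenced, was 213 with a 95% counting interval of 37.8 to 8446. Injured CD44high libraries held 2.12, 5.37, 6.03 and 9.10 CPM and injured CD44low libraries 0 to 1.24 CPM with a median of 0.665 CPM, an 8.63-fold difference (log2 fold change 3.11 ± 0.642 SE, adjusted p 0.00049). The change with injury did not pass the test in either subset (log2 fold change -0.47, adjusted p 0.778 in CD44high, and 1.00, adjusted p 0.485 in CD44low Tregs). Without uninjured CD44low replicate 5 the value in CD44low Tregs became 3.60 and was called (adjusted p 0.0434), against a group with 1 count. IGSF9B and TSPAN17 were most like KLF12 (root mean square differences of 0.69 and 0.70, where KLF12 itself deviated by 1.92).

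The injured CD44low libraries fell into 2 sets by label, and the members KLF6, KLF10 and KLF11 followed the split. Libraries 1, 2 and 5 held 7.88, 10.8 and 6.13 CPM of KLF11, and libraries 1_2, 4_2 and 5_2 held 17.0, 19.8 and 24.6 CPM. KLF10 went the other way, with 66.3, 61.6 and 53.7 CPM against 43.2, 46.5 and 40.8 CPM, and KLF6 was at 278, 268 and 304 CPM against 401, 307 and 387 CPM. The 2 sets did not overlap for these 3 of the 6 tested members, as for 19.3% of all genes tested, and they overlapped for KLF4, KLF7, KLF12 and KLF13. In an edgeR fit with a mean for each set, KLF11 was 1.30 ± 0.244 (log2, SE) higher in the libraries with a second number (adjusted p 0.00334), where 3.56% of all genes were called, and KLF10 (-0.48 ± 0.141, adjusted p 0.0611) and KLF6 (0.36 ± 0.120, adjusted p 0.1) did not pass. The sum of the immediate-early genes did not overlap between the sets either, with the values given above. What the second number stands for is not known, so the set and any difference in mice, sort or sequencing cannot be told apart.

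Without the 3 libraries with a second number, 2 members were lower after injury in CD44low Tregs, where 7.67% of 11600 genes were. KLF6 was 1.36-fold lower there (log2 fold change -0.44 ± 0.0979 SE, edgeR adjusted p 0.00533), with the 3 injured libraries below all 5 uninjured ones, and KLF11 was 1.77-fold lower (-0.82 ± 0.222, adjusted p 0.0174), with overlapping libraries. In the same fit KLF11 was also lower after injury in CD44high Tregs (-0.92 ± 0.196, adjusted p 0.0079), and its difference between the subsets in injured mice was 2.17-fold (log2 fold change 1.12 ± 0.228, adjusted p 0.00068), where 18.2% of all genes were called higher. KLF10 was 0.25 ± 0.122 above its uninjured level in CD44low Tregs (adjusted p 0.172), and its injury effect differed between the subsets by -0.83 ± 0.167 (adjusted p 0.00903), where 2.71% of all genes were called. The interaction of KLF6 in that fit was -0.48 ± 0.134 (adjusted p 0.0617) and that of KLF11 was -0.10 ± 0.296 (adjusted p 0.909).

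With the libraries that had a second number as the only injured CD44low libraries, none of the 6 members was called in CD44low Tregs by edgeR. The injury effects there were -0.06 ± 0.109 for KLF6, 0.50 ± 0.200 for KLF11 (unadjusted p 0.0205, adjusted p 0.149) and -0.20 ± 0.130 for KLF10. The interactions were then called for KLF6 (-0.85 ± 0.151, adjusted p 0.00542) and KLF11 (-1.41 ± 0.276, adjusted p 0.0101), and that of KLF10 was not. The decrease of KLF6 in CD44high Tregs, which uses none of these libraries directly, was called in both fits, whereas the effect of injury on KLF6, KLF10 and KLF11 in CD44low Tregs differed in call or in sign between the sets.

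**Figure D4:**
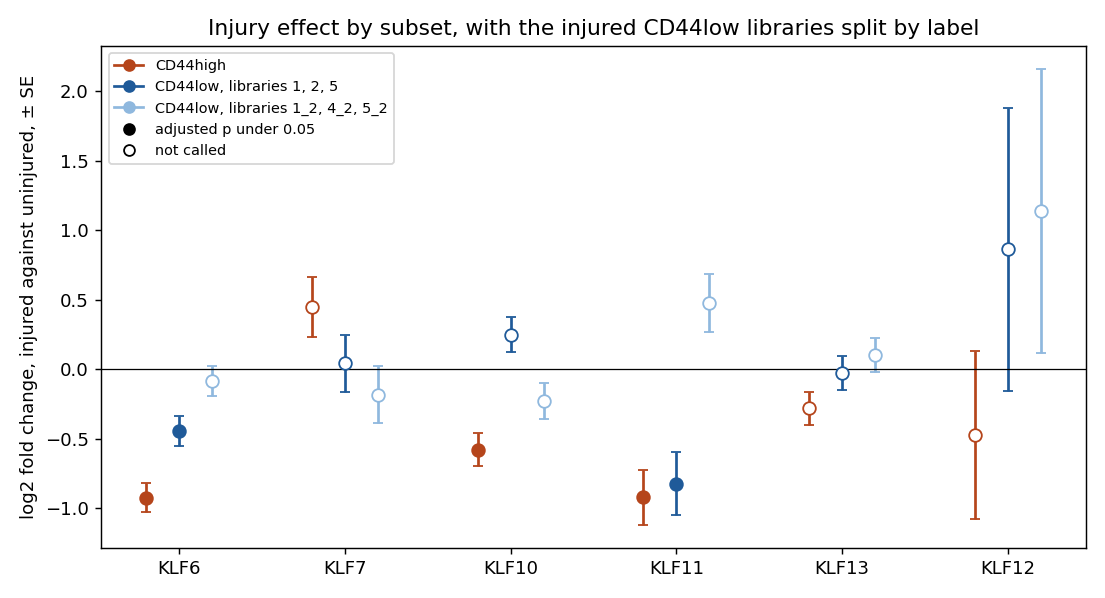
Effect of injury (y axis, log2 fold change ± SE) in CD44high Tregs and in CD44low Tregs, with the injured CD44low libraries split by label, from an edgeR fit with 5 means; filled points passed adjusted p under 0.05. KLF6, KLF10 and KLF11 fell in CD44high Tregs in this fit, while in CD44low Tregs KLF6 and KLF11 fell with libraries 1, 2 and 5 alone.

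The rest of the family was read from a list of 19 KLF and SP genes, of which 5 had no count in any library and 10 were tested. In uninjured mice 1 was higher and 8 were lower in CD44high Tregs, in injured mice 1 was higher and 7 were lower, against 24.7% of all genes higher and 21.3% lower in uninjured and 20.1% and 17.2% in injured mice. The higher gene was KLF8, which binds CtBP as KLF12 does, at 11.6 ± 4.15 CPM in uninjured CD44high (SD, n = 4) and 1.63 ± 0.947 CPM in uninjured CD44low Tregs (SD, n = 5), with log2 fold changes of 2.84 and 3.15 in uninjured and injured mice. KLF3, also a CtBP-binding repressor, was lower, by -1.09 and -0.80, and it was called higher after injury in CD44high Tregs (log2 fold change 0.58, edgeR adjusted p 0.0178), from 100 ± 13.9 to 149 ± 17.1 CPM (SD, n = 4). So the CtBP-binding members KLF3, KLF8 and KLF12 did not share 1 direction between the subsets. KLF2 was lower in CD44high Tregs by -0.94 in uninjured and -1.32 in injured mice (log2). SP6, a related factor known from tooth and skin, was lower by -0.96 and -1.10 between the subsets and was called lower after injury in both, by -1.16 in CD44high and -1.02 in CD44low Tregs (log2).

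Of 10 genes for the corepressors and coactivators that these factors recruit, all tested, 1 was higher and 4 were lower in CD44high Tregs of uninjured mice, 1 and 3 in injured mice, where the shares of all genes were 24.7% higher and 21.3% lower in uninjured and 20.1% and 17.2% in injured mice. SAP30, a subunit of the Sin3 complex, was higher, from 5.09 ± 2.27 CPM in uninjured CD44low (SD, n = 5) to 11.7 ± 1.88 CPM in uninjured CD44high Tregs (SD, n = 4, log2 fold change 1.19, edgeR adjusted p 0.0104). The complex did not move as a whole. SIN3A was called lower in CD44high Tregs of uninjured mice (-0.79, log2, edgeR adjusted p 0.00116) but not of injured mice (-0.36, adjusted p 0.103). SIN3B, HDAC1 and HDAC2 were called in neither. CTBP1 was lower in both, by -0.34 and -0.53 (log2). The acetyltransferase genes CREBBP and KAT2B were lower, by -1.24 and -1.03 (log2) in uninjured mice. Of 7 genes of the TGF-β and ubiquitin pathways that act on KLF10, 1 was higher and 4 were lower in CD44high Tregs of uninjured mice. In injured mice 0 were higher and 2 were lower, and the shares of all genes were those just given. After injury 1 was lower in CD44high Tregs, where 1.33% of all genes were. All of these called changes stayed under 2-fold.

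Of 8 genes reported as targets of the family, 3 were higher and 3 were lower in CD44high Tregs in each kind of mouse, against 24.7% and 21.3% of all genes in uninjured and 20.1% and 17.2% in injured mice. CCL5, a chemokine gene that KLF13 is known to activate, stood at 32.2 ± 5.45 CPM in uninjured CD44high (SD, n = 4) and 4.72 ± 0.826 CPM in uninjured CD44low Tregs (SD, n = 5), the opposite direction to KLF13. It fell after injury in CD44high Tregs to 13.5 ± 3.46 CPM (SD, n = 4), and the interaction was called (-1.62, log2, edgeR adjusted p 0.0266). CDKN1A, a cell cycle inhibitor gene linked with KLF4 and KLF6, was higher in CD44high Tregs by 3.01 in uninjured and 2.28 in injured mice (log2). SMAD7, the feedback inhibitor of TGF-β signalling that KLF10 and KLF11 are known to repress, was lower by -1.63 and -1.36. CCR7, a receptor for lymph node homing, was lower by -1.71 in uninjured and -1.69 in injured mice (log2). The remaining called targets changed by less than 2-fold. S1PR1, the egress receptor gene, was lower by -0.97 and -0.74 (log2). ITGB7, an integrin gene for homing to the gut, was higher by 0.67 and 0.32 and was called lower after injury in CD44high Tregs (-0.34, edgeR adjusted p 0.0393). FOXP3 and TGFB1 did not pass the test in the 4 group comparisons, with edgeR adjusted p of at least 0.068 and 0.653.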

How the data were processed

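Gene counts of 19 bulk RNA-seq libraries were analysed. Per the labels and the study's methods, RNA from sorted cells was made into cDNA with a SMART-Seq v4 kit, sequenced and aligned in the VIPER workflow; the submitters' processing notes name bcl2fastq 2.18, STAR 2.5 and the builds mm9 and mm10 without saying which build the counts used. The values deposited by the authors are raw counts per gene symbol, whole numbers that were not normalized, with totals of 5582234 to 9433610 per library. For the counting annotation and strand setting, the sources used here name nothing. Reads from overlapping genes therefore cannot be told apart.

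Counts were fitted with edgeR 4.0.16 in R 4.3.3: genes were kept by filterByExpr with a minimum count of 10, library sizes were scaled by trimmed means (TMM), and 4 group means were fitted to all 19 libraries with the quasi-likelihood test. P-values were adjusted over all 11464 genes by the method of Benjamini and Hochberg, and a gene was called at an adjusted p under 0.05. SE is the log2 fold change divided by the root of the F statistic. Scripts were tested on simulated counts. Alternatives were DESeq2 1.42.0, fits without the filter, with RLE factors or of only the compared groups, a replicate block, summed, thinned or left-out libraries, and the study's stricter threshold; the fits with only the second-number libraries, or with a mean for each set, were chosen after seeing the data. Exon lengths came from GENCODE vM21 and start regions from RefSeq. Intervals cover counting error only.

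The 7 members were given by name. Other genes were named where called with a change of 2-fold or more from lists of family genes, cofactors, KLF10 regulators and reported targets, and for each called member the 2 genes nearest in centred log2 CPM. Lists of other cell types, immediate-early and heat shock genes were summed. Some of their called genes, though not all, were named after their values were seen. Cofactor genes with a smaller change or no call were also named after their values were seen. A further gene of the target list is not reported here. Members and lists were chosen with earlier results of these data known.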

Additional observations from a re-analysis of the deposited data

Results flagged for a closer look

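Over 28 sets of a member in a group, 2 held a library whose gap to its nearest neighbour was larger than Dixon's 95% limit for the group's range; chance flags about 1 in 20 such sets. In uninjured CD44high Tregs, replicate 5 had the lowest KLF10 level, 133 CPM, with a gap of 0.839 of the range of the 4 libraries. Without that library the decrease of KLF10 after injury in CD44high Tregs was -0.66 (log2, edgeR adjusted p 0.022). In uninjured CD44low Tregs, replicate 5 had the highest KLF12 level, 1.52 CPM or 9 counts, with a gap of 0.896 of the range of the 5 libraries.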

How the results depend on the processing

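The counts of members called between the subsets were 5 in each kind of mouse under the alternatives tried, with 6 in injured mice when the libraries with a second number were left out; at an unadjusted p under 1e-06 with a 2-fold change they were 2 in uninjured and 1 in injured mice. Of the 988 refits of single members, 935 kept direction and call. After injury in CD44high Tregs the count of members was 2 or 3 in the other fits, 1 to 2 when a library was left out and 0 at the stricter threshold. In CD44low Tregs it was 2 without the libraries with a second number and 0 to 1 when a library was left out. For the interaction it was 1 with DESeq2, RLE factors, no filter, second-number libraries left out or libraries of the same number summed, 2 with second-number libraries alone, and 0 to 1 when a library was left out. The cause of these moves was not tested.

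All genes called after injury in CD44high Tregs (273) were 476 with DESeq2, 601 with the compared groups alone, 581 without second-number libraries, 476 with libraries summed, 17 at the stricter threshold and 152 to 344 when a library was left out. In CD44low Tregs (871) they were 1451 with DESeq2, 464 with the compared groups alone, 1749 without and 445 with only second-number libraries, 439 with the replicate block, 14 at the stricter threshold and 510 to 1893 when a library was left out. For the interaction (74) they were 217 with DESeq2, 314 without and 136 with only second-number libraries, 10 at the stricter threshold and 43 to 110 when a library was left out. Between the subsets the stricter threshold left 951 of 5280 and 688 of 4282.

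Signs turned among log2 fold changes that did not pass the test. KLF4 between the subsets in uninjured mice (-0.0077) became 0.0057 with DESeq2, 0.0014 with the compared groups alone, 0.0024 with RLE factors, 0.16 with the replicate block within the injury arm and -0.14 to 0.16 when a library was left out. KLF6 there (-0.02) became 0.0063 with the replicate block and -0.091 to 0.050 when a library was left out. KLF11 in injured mice became -0.21 with second-number libraries alone. After injury in CD44low Tregs, second-number libraries alone gave 0.37 for KLF4, -0.20 for KLF10 and 0.50 for KLF11, leaving them out gave 0.045 for KLF7 and -0.024 for KLF13, the replicate block gave 0.018 for KLF11, and leaving out a library gave -0.12 to 0.082 for KLF7, -0.029 to 0.12 for KLF10, -0.25 to 0.14 for KLF11 and -0.028 to 0.11 for KLF13. KLF12 in CD44low Tregs rose to 3.60 (adjusted p 0.0434) without uninjured replicate 5, which leaves 1 count in the uninjured libraries.

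Whether equal replicate numbers mark the same mice is not known. Between the subsets, deviations of same-numbered libraries correlated at -0.0068 to 0.119 in uninjured mice (4 pairs, 1 over 0.1). The range was -0.054 to 0.167 in injured mice (4 pairs, 3 over 0.1). Pairs of unlike number reached 0.0395 and 0.410. Of 4 CD44high libraries, 2 in uninjured and 1 in injured mice correlated best with a CD44low library of their own number. With so few pairs this cannot decide whether the samples were paired. With the replicate block the members called were 5, 5, 2, 0 and 0 in the 5 comparisons, as without it. Depth limits KLF4, with at most 13 counts, and KLF12 in CD44low Tregs, with at most 10.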

Other observations

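Beside the members described, 2 further family genes, both chosen after their values were seen, had patterns of their own. SP4, a relative of SP1 studied mostly in neurons, was called lower after injury in both subsets, from 31.1 ± 4.70 to 18.1 ± 6.68 CPM in CD44high Tregs (SD, n = 4 and 4, log2 fold change -0.78, edgeR adjusted p 0.0398) and from 56.4 ± 5.27 to 28.7 ± 3.92 CPM in CD44low Tregs (SD, n = 5 and 6, log2 fold change -0.98, adjusted p 0.00165). KLF9, which responds to glucocorticoids in many tissues, split the injured CD44low libraries by label as KLF11 did. The libraries with a plain number held 9.41 to 21.5 CPM and those with a second number 27.7 to 31.8 CPM, without overlap. With all 6 libraries its change after injury in CD44low Tregs was 0.80 ± 0.251 (log2, SE), which did not pass the test (edgeR adjusted p 0.0521).

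The marker lists not given above had these sums. B cell markers summed to 72.1 to 209 CPM and CD8 and NK cell markers, of which CD8B1 made up most, to 46.3 to 72.6 CPM over the 19 libraries. Of the 6 B cell markers, 1 was called higher in CD44high Tregs of uninjured mice, where 24.7% of all genes were. The 7 Treg and sort markers summed to 4302 to 4952 CPM in CD44high and 3239 to 3959 CPM in CD44low libraries. Of these, 3 were called higher and 1 lower in CD44high Tregs of uninjured mice, where 24.7% and 21.3% of all genes were. In injured mice it was 4 and 1, against 20.1% and 17.2%. In uninjured CD44high and CD44low Tregs CTLA4 had means of 1050 and 210 CPM and CD44 594 and 133 CPM. IL2RA and FOXP3 went the other way, with 543 and 833 CPM and 87.7 and 115 CPM (n = 4 and 5). The 4 heat shock genes summed to 265 to 555 CPM. After injury, 1 of them was called lower and 1 higher in CD44high Tregs, where 1.33% of all genes were called lower and 1.06% higher. In CD44low Tregs 3 were called lower and 1 higher, where 3.36% of all genes were called lower and 4.24% higher. HSPA1A was lower in both (log2 fold changes -3.94 and -5.43, edgeR adjusted p 0.00349 and 8.5e-05), and HSPH1 was higher in both (1.21 and 0.97). HSPA1B fell in CD44low Tregs from 34.0 ± 26.1 to 2.32 ± 1.16 CPM and DNAJB1 from 250 ± 46.0 to 185 ± 33.7 CPM (SD, n = 5 and 6), and in CD44high Tregs they did not pass the test (-2.02 and -0.20, log2).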
